A study of Mus musculus with 24 samples.

Results

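The BCL2 family genes examined here were 10 transcripts measured by bulk RNA-seq in mouse LSKs, the Lin-Sca-1+c-Kit+ cells of the bone marrow that hold the stem cells and the earliest progenitors. They were chosen by symbol, as 3 anti-apoptotic genes (Bcl2, Bcl2l1 and Mcl1), 2 effectors (Bax and Bak1) and 5 BH3-only genes (Bcl2l11, Bid, Bad, Pmaip1 and Bbc3). All 10 were among the 24091 genes of the deposited table. There were 24 libraries in 4 groups of 6 mice, 3 females and 3 males each, all on the B6 background. WT mice carried neither alteration, and miR-142 KO mice were miR-142-/-, a deletion of the miRNA gene Mir142. CP CML mice were miR-142+/+ and carried SCLtTA/BCR-ABL, and BC CML mice were miR-142-/- with the same transgenes. In both CML groups BCR-ABL was switched on by withdrawal of tetracycline 2 weeks before the LSKs were sorted. Its expression was confined by the SCL promoter to cells that use that promoter. The CML genotypes were matched by the authors for age, gender, SCL and BCR-ABL level, and the labels give no age. Chronic phase (CP) and blast crisis (BC) are the study's names for these 2 genotypes of the mouse model.

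Proteins of the BCL2 family decide whether the outer mitochondrial membrane is opened, the step that releases cytochrome c and commits a cell to the intrinsic path of apoptosis. BCL2, BCL-XL (the product of Bcl2l1) and MCL1 hold the effectors BAX and BAK in check, and BH3-only proteins carry signals of growth factor loss, DNA damage or death receptors to either side. Blood stem cells are known to depend on MCL1, and BCR-ABL signaling is known to act on BIM (Bcl2l11), BAD and BCL-XL. Much of this control is exerted on the proteins, which were not measured here.

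The deleted miRNA gives rise to 2 mature strands on chromosome 11 of GRCm38 (mm10). Their sequences, from RefSeq (GRCm38.p6), are shown because a direct target would be recognised through the seed, bases 2 to 8, printed in capitals. The 5p strand lies at chr11:87756867-87756887 and the 3p strand at chr11:87756903-87756925, both on the plus strand.
mmu-miR-142a-5p: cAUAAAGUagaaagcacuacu
mmu-miR-142a-3p: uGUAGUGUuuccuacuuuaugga
A complement of the 5p seed (ACTTTAT) was present in the annotated 3' UTR of 15.9% of the 12616 tested genes with a 3' UTR, and a complement of the 3p seed (ACACTAC) in 6.97%. Of the 10 BCL2 family genes, 1 held such a site. The 3' UTR of Mcl1 had a single match to the 5p seed at chr3:95662645-95662651 on the plus strand, at base 1822 of 2353, shown with its neighbours and with the match in capitals.
Mcl1 3' UTR site: tcggacttcagagcACTTTATg
The 3' UTRs of the other 9 genes, among them the 5086 bases of Bcl2 and the 4218 bases of Bcl2l11, held no match of these 7 letters to either strand. A match of letters is a description of the sequence and does not show that the site is used.

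The libraries held between 16267965 (a CP CML female) and 24687077 counts, and TMM factors, which correct the totals for RNA composition, were 0.9438 to 1.059. Mir142 itself had 94 to 127 counts in each WT library, 68 to 153 in each CP CML library and 0 in every library of the groups lacking miR-142. Of all genes, 13520 passed edgeR's filter on low counts and were tested, including all 10 BCL2 family genes. Levels are given as normalised CPM, the counts of a gene scaled to the TMM-corrected library total. All folds and adjusted p values come from edgeR's quasi-likelihood fit over the 24 libraries. Adjustment was by Benjamini-Hochberg over the 13520 genes, at a threshold of 0.05. Kit, Cd34 and Ptprc were present at 801 to 1110, 934 to 1160 and 478 to 517 mean CPM across the groups. Ly6a, which encodes Sca-1, was at 41.7 (WT), 92.3 (miR-142 KO), 51.9 (CP CML) and 110 CPM (BC CML). The defining T cell gene Cd3e stayed at a mean of 1.13 CPM or less.

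In BC CML compared with CP CML LSKs, Pmaip1, Bcl2l1, Bax and Bak1 rose and Bcl2l11 fell. Of the 10 genes, 4 were higher, where 20.4% of all tested genes were, and 1 was lower, where 17.6% of all tested genes were. In miR-142 KO compared with WT LSKs, Pmaip1, Bcl2l1, Bak1, Bid and Bcl2 rose and Bcl2l11 fell. These were 5 higher against a background of 19.9% and 1 lower against 16.4%. In CP CML compared with WT LSKs, Pmaip1, Bak1, Bid, Bad and Bax rose and Bcl2 fell. These were 5 higher against a background of 22.5% and 1 lower against 22.9%. In BC CML compared with miR-142 KO LSKs, Bax, Bak1, Bad and Bid rose and Bcl2 fell. These were 4 higher against 20.3% and 1 lower against 19.3%. Each group enters 2 of these 4 comparisons, so they are not independent of each other.

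The median log2 fold change of the 10 genes was 0.24, 0.25, 0.23 and 0.12 in these comparisons in the same order, and that of all tested genes was 0.01, 0.01, -0.02 and -0.02. Among all genes called, 53.7%, 54.7%, 49.6% and 51.3% were higher, and these shares became 42.4%, 42%, 41.6% and 43.2% under upper quartile normalization. That scaling left the direction of every called BCL2 family gene as it was and ended 1 call, that of Bcl2 in miR-142 KO against WT LSKs. A bulk measurement cannot tell fewer cells of a type from less RNA per cell, and this holds for each value below. Nothing in the labels names a batch.

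**Figure D1:**
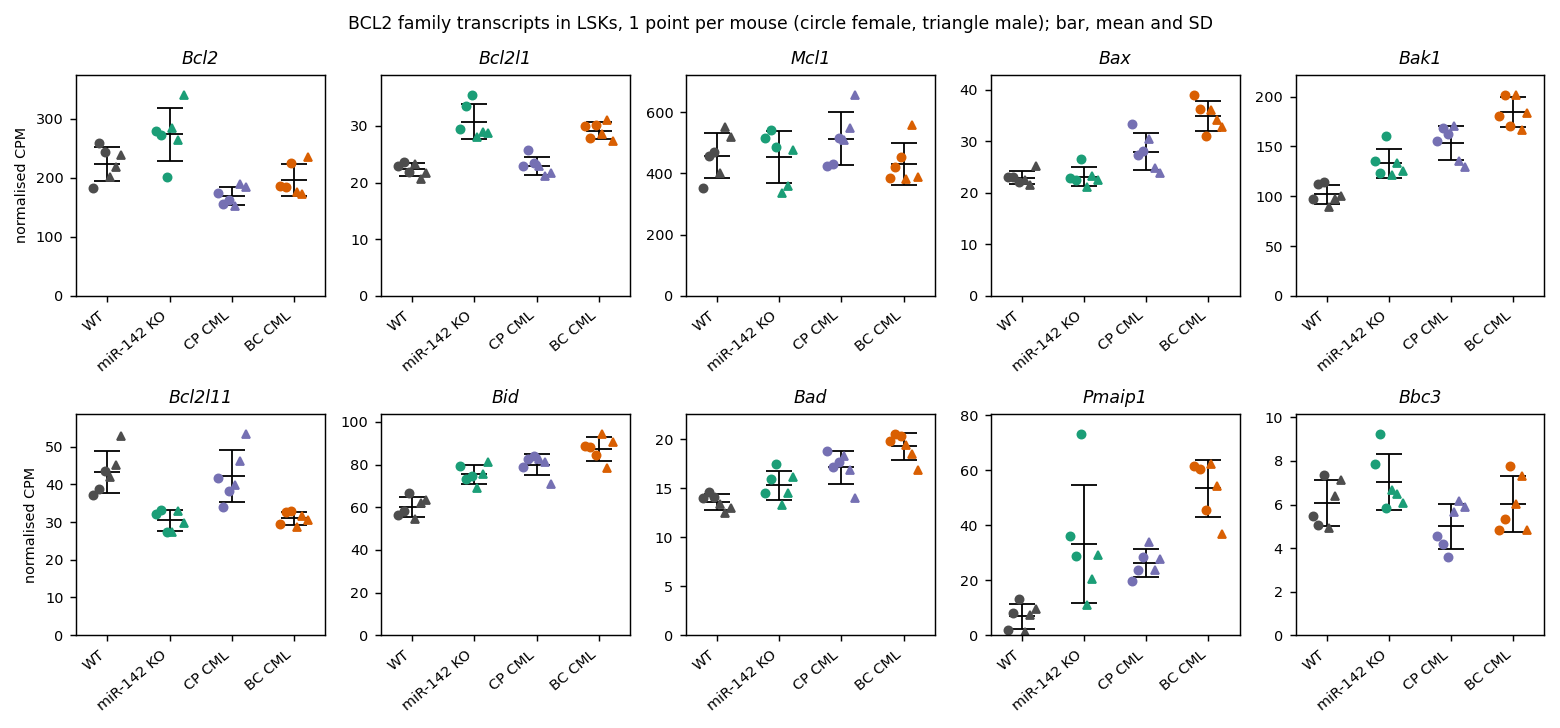
Normalised CPM of the 10 BCL2 family genes (y axes, each starting at 0) in the 4 groups (x axes), with 1 point per mouse, circles for females and triangles for males, and bars for the mean and SD of 6 mice. The Bcl2l11 points of miR-142 KO and BC CML lie below those of WT and CP CML, and the Pmaip1 points of WT lie between 1.29 and 13.1, with those of BC CML between 36.9 and 62.3.

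Bcl2, the founding survival gene of the family (chr1:106538176-106714290, minus strand), was the one anti-apoptotic gene that passed the threshold in the BCR-ABL comparisons. Its lowest, median and highest levels were 183, 228.5 and 259 CPM in WT and 201, 276 and 341 CPM in miR-142 KO LSKs. They were 153, 168 and 189 CPM in CP CML LSKs and 173, 185 and 235 CPM in BC CML LSKs. The CP CML mice were the lowest group and the miR-142 KO mice the highest, with overlap between every pair of groups compared. Bcl2 fell in CP CML compared with WT LSKs (log2 fold change -0.40, 95% interval -0.62 to -0.18, adjusted p = 0.003619). It also fell in BC CML compared with miR-142 KO LSKs (-0.48, -0.69 to -0.26, adjusted p = 0.001188). It rose in miR-142 KO compared with WT LSKs (0.29, 0.07 to 0.50, adjusted p = 0.03317). That call was lost when the WT mouse 1, 4 or 5 or the miR-142 KO mouse 4 or 6 was left out, with log2 fold changes of 0.22 to 0.29. It was also lost under upper quartile normalization (0.24, adjusted p = 0.07812), in a fit of only the 12 libraries compared (0.28, adjusted p = 0.08192) and without the WT mice 1 and 4 together (0.18, adjusted p = 0.2373). The difference of 0.21 between BC CML and CP CML did not pass (interval -0.0047 to 0.43, adjusted p = 0.1148).

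Bcl2l1, which encodes BCL-XL (chr2:152758732-152831728, minus strand), passed the threshold in both miR-142 comparisons and in neither BCR-ABL comparison. Its lowest, median and highest levels were 20.7, 22.4 and 23.6 CPM in WT and 28.0, 29.2 and 35.5 CPM in miR-142 KO LSKs. In CP CML LSKs they were 21.2, 22.9 and 25.7 CPM, and in BC CML LSKs 27.3, 29.3 and 31.1 CPM. Every mouse without miR-142 was above every mouse with it. Bcl2l1 rose in miR-142 KO compared with WT LSKs (log2 fold change 0.46, 95% interval 0.33 to 0.59, adjusted p = 4.407e-06). It rose 1.27-fold in BC CML compared with CP CML LSKs (0.34, 0.22 to 0.47, adjusted p = 0.0001455). The 2 BCR-ABL comparisons gave 0.04 (-0.09 to 0.17, CP CML against WT, adjusted p = 0.6193) and -0.07 (-0.20 to 0.05, BC CML against miR-142 KO, adjusted p = 0.3567).

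Mcl1, whose protein is short-lived and is needed by blood stem cells (chr3:95658721-95663178, plus strand), holds the miR-142a-5p seed match shown above, and it passed the threshold in none of the 4 comparisons. Its lowest, median and highest levels were 353, 462 and 552 CPM in WT and 335, 481 and 542 CPM in miR-142 KO LSKs. They were 424, 511.5 and 657 CPM in CP CML LSKs and 381, 404 and 558 CPM in BC CML LSKs. All 4 ranges overlapped. The log2 difference was -0.02 in miR-142 KO against WT (95% interval -0.29 to 0.25, adjusted p = 0.9258), with a sign that turned when single mice were left out. It was -0.25 in BC CML against CP CML (-0.53 to 0.02, adjusted p = 0.1315). Without the BC CML mouse 5, which held the highest value of its group, the latter became -0.36 with an adjusted p of 0.03444. The BCR-ABL comparisons gave 0.17 (-0.11 to 0.44) and -0.07 (-0.34 to 0.20).

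**Figure D2:**
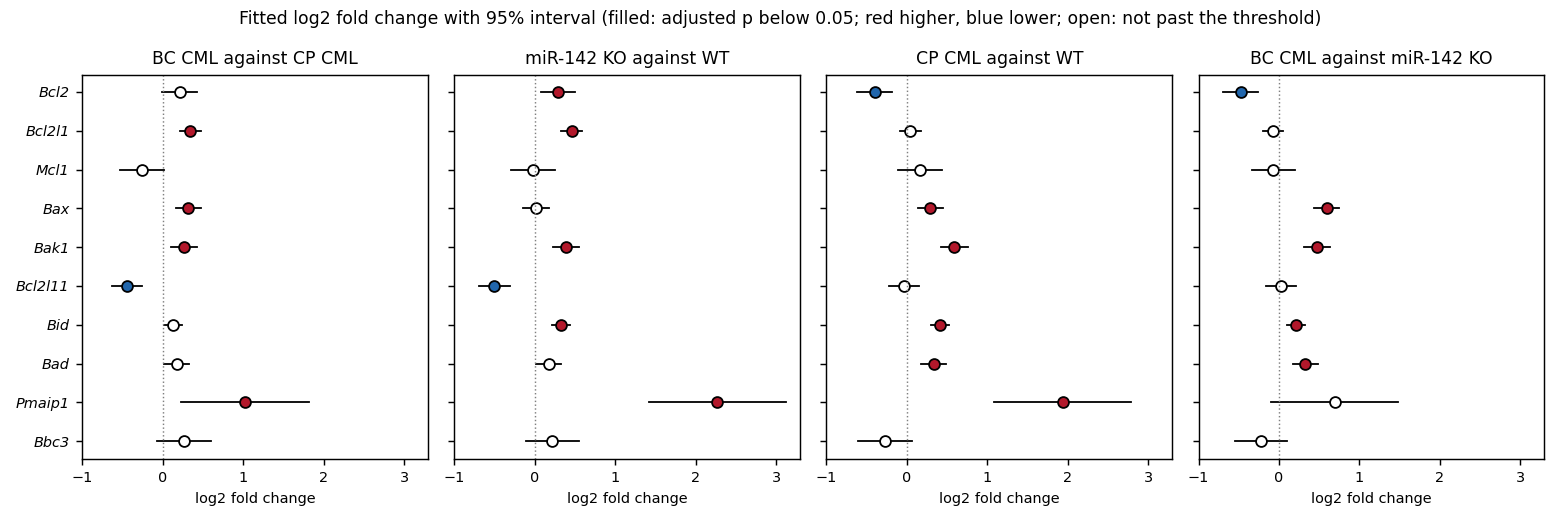
Log2 fold change (x axes) of the 10 genes (y axis) in the 4 comparisons, 1 panel each, with points for the fitted value and bars for its 95% interval; filled points passed the adjusted p threshold of 0.05, red for higher and blue for lower. Bcl2l1 and Bcl2l11 are filled in both miR-142 comparisons and open in both BCR-ABL comparisons, and Pmaip1 has the widest intervals.

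Of the effectors, which form the pore in the outer mitochondrial membrane, Bax (chr7:45461695-45466898, minus strand) was higher with BCR-ABL. Its lowest, median and highest levels were 21.5, 22.8 and 25.2 CPM in WT and 21.1, 22.7 and 26.6 CPM in miR-142 KO LSKs. They were 23.8, 27.7 and 33.4 CPM in CP CML LSKs and 31.0, 35.1 and 39.1 CPM in BC CML LSKs. The BC CML mice all lay above the miR-142 KO mice, whereas CP CML overlapped with both WT and BC CML. Bax rose 1.51-fold in BC CML compared with miR-142 KO LSKs (log2 fold change 0.59, 95% interval 0.44 to 0.75, adjusted p = 3.943e-06). It rose by 0.29 on the log2 scale in CP CML compared with WT LSKs (0.13 to 0.44, adjusted p = 0.003641). It rose by 0.32 in BC CML compared with CP CML LSKs (0.16 to 0.47, adjusted p = 0.001783). In normal LSKs the difference between miR-142 KO and WT was 0.01 (-0.14 to 0.17, adjusted p = 0.899), and it was -0.04 under upper quartile normalization.

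Bak1 (chr17:27019812-27028626, minus strand), the effector that sits in the mitochondrial membrane, passed the threshold upward in all 4 comparisons. Its lowest, median and highest levels were 89.6, 98.7 and 115 CPM in WT and 121, 129 and 160.2 CPM in miR-142 KO LSKs. They were 129.7, 159 and 170 CPM in CP CML LSKs and 166, 182 and 202 CPM in BC CML LSKs. The WT mice were below all others and the BC CML mice above all WT and miR-142 KO mice, with overlap between CP CML and BC CML. With BCR-ABL the log2 fold change was 0.59 in CP CML against WT (95% interval 0.43 to 0.76, adjusted p = 5.573e-06) and 0.47 in BC CML against miR-142 KO (0.31 to 0.63, adjusted p = 0.0001159). Without miR-142 it was 0.38 in miR-142 KO against WT (0.22 to 0.55, adjusted p = 0.0005984) and 0.26 in BC CML against CP CML (0.10 to 0.43, adjusted p = 0.01132).

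The start region of Bax is shown because Bax was a gene that moved with BCR-ABL and its window held 2 copies of the canonical E-box, CACGTG, the letters that MYC and related factors read. The window covers 250 bases before to 50 bases after the RefSeq start on GRCm38.p6, and the sequences are on the minus strand. Capitals mark the E-box, which begins 9 bases before the start in the first and 35 bases after it in the second.
Bax, chr7:45466892-45466917: cgatgatgatCACGTGactagtcctg
Bax, chr7:45466849-45466873: gcggggcaccCACGTGagggccgca
The E-box, searched on both strands (it reads the same on each), was present in 7.15% of 32851 such windows of all genes. Of the BCL2 family genes, 9 had at least 1 window, 15 in all, and the E-box was also found in Bbc3, which passed in no comparison. The windows of Bak1, Bid and Bad, which also rose in both BCR-ABL comparisons, held no E-box. Myc itself did not pass the threshold in CP CML against WT (0.20, adjusted p = 0.1503) or BC CML against miR-142 KO (-0.10, adjusted p = 0.5287). Nor did it pass in miR-142 KO against WT (0.07, adjusted p = 0.6421) or BC CML against CP CML (-0.22, adjusted p = 0.1244). Whether the E-box is used in these cells was not tested. The letters TTCNNNGAA, read by STAT factors, were in 8.3% of all windows and in 0 of the 15, and TGACGTCA, the cAMP response element, in 1.79% and in 0 of the 15.

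Of the BH3-only genes, Bcl2l11 (chr2:128126038-128162547, plus strand), which encodes BIM, an activator of BAX and BAK and a binding partner of all 3 survival proteins, fell with the loss of miR-142. Its lowest, median and highest levels were 37.2, 42.8 and 52.8 CPM in WT and 27.3, 31.0 and 33.1 CPM in miR-142 KO LSKs. They were 33.9, 40.8 and 53.4 CPM in CP CML LSKs and 28.8, 31.1 and 32.9 CPM in BC CML LSKs. Every mouse without miR-142 was below every mouse with it. The log2 fold change was -0.51 in miR-142 KO against WT (95% interval -0.70 to -0.31, adjusted p = 0.0001644) and -0.44 in BC CML against CP CML (-0.64 to -0.25, adjusted p = 0.0005971). The BCR-ABL comparisons gave -0.03 (-0.22 to 0.16, CP CML against WT, adjusted p = 0.7778) and 0.03 (-0.17 to 0.22, BC CML against miR-142 KO, adjusted p = 0.8484). The sign of each of these near-zero values turned when some single mice were left out, and that of the second also under upper quartile normalization.

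The letters TGTTTAC, a core motif of FOXO factors, which are known activators of Bcl2l11 and Bbc3, were present on 1 strand or the other in 3.65% of all start windows and, among the BCL2 family genes, in Bcl2l11 and Bbc3. They are shown in capitals within GRCm38.p6 sequence of the plus strand, where the Bcl2l11 copy reads on the opposite strand and begins 227 bases before the start.
Bcl2l11, chr2:128125801-128125827: agacactaggGTAAACAcgccggggtg
Bbc3, chr7:16310084-16310110: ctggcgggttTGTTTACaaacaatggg
Of the FOXO genes themselves, Foxo3 fell in miR-142 KO (log2 fold change -0.34, adjusted p = 0.003422) and in CP CML (-0.52, adjusted p = 5.369e-05), each against WT, and in BC CML against miR-142 KO LSKs (-0.36, adjusted p = 0.002535). Foxo4 rose in both miR-142 comparisons (0.23, adjusted p = 0.01732, in normal and 0.33, adjusted p = 0.001277, in CML LSKs) and fell in both BCR-ABL comparisons (-0.33, adjusted p = 0.001167, against WT and -0.23, adjusted p = 0.01766, against miR-142 KO). Foxo1 fell in BC CML against CP CML (-0.28, adjusted p = 0.009369) and against miR-142 KO LSKs (-0.21, adjusted p = 0.04389). Whether the motif is used in these cells was not tested.

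Pmaip1, a p53 target that encodes NOXA, a BH3-only protein that neutralises MCL1 (chromosome 18), had the largest fold change of the 10 genes in each of the 3 comparisons where it passed. The 6 WT mice gave 1.76, 8.06, 13.1, 1.29, 7.45 and 9.36 CPM. The lowest, median and highest levels were 10.8, 28.9 and 73.2 CPM in miR-142 KO LSKs. They were 19.6, 25.8 and 33.9 CPM in CP CML LSKs and 36.9, 57.2 and 62.3 CPM in BC CML LSKs. All CP CML mice were above all WT mice and all BC CML mice above all CP CML mice, whereas miR-142 KO overlapped with WT and with both CML groups. Pmaip1 rose 4.82-fold in miR-142 KO compared with WT LSKs (log2 fold change 2.27, 95% interval 1.42 to 3.12, adjusted p = 0.0001552). It rose 3.83-fold in CP CML compared with WT LSKs (1.94, 1.09 to 2.79, adjusted p = 0.0006408). It rose 2.04-fold in BC CML compared with CP CML LSKs (1.03, 0.23 to 1.82, adjusted p = 0.0387).

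The WT coefficient of variation of Pmaip1 was 66.8%, and that of miR-142 KO 65%, against 18.8% in CP CML LSKs and 19.3% in BC CML LSKs. Without the 2 lowest WT mice, 1 and 4, the log2 fold change was 1.79 in miR-142 KO (adjusted p = 0.000568) and 1.47 in CP CML (adjusted p = 0.002502). The BC CML against CP CML call was lost in 9 of the 24 fits with 1 mouse left out and with DESeq2. In these the log2 fold change was 0.94 to 1.03 and the adjusted p 0.05625 to 0.0788. All 9 left out a CP CML or BC CML mouse. Of the fits that did so, only those without CP CML mouse 4 or BC CML mouse 3 or 6 kept the call. In a fit of only these 12 libraries the adjusted p was 5.242e-05. Against miR-142 KO, BC CML gave 0.69 (-0.09 to 1.48, adjusted p = 0.1522), which passed without the miR-142 KO mouse 3, the mouse at 73.2 CPM (1.08, adjusted p = 0.01655).

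Bid (chr6:120893119-120916820, minus strand), cleaved by caspase 8 to link death receptors to mitochondria, spanned 54.4 to 66.9 CPM (WT), 69.1 to 81.3 (miR-142 KO), 70.7 to 84.1 (CP CML) and 78.2 to 94.4 (BC CML). The WT mice were below all other mice. Bid rose by 0.33 on the log2 scale in miR-142 KO (95% interval 0.21 to 0.44, adjusted p = 8.069e-05) and by 0.41 in CP CML (0.29 to 0.53, adjusted p = 6.292e-06), each against WT. It rose by 0.21 in BC CML against miR-142 KO LSKs (0.10 to 0.33, adjusted p = 0.00458). The difference of 0.13 between BC CML and CP CML did not pass (0.01 to 0.24, adjusted p = 0.07175).

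Bad (chr19:6941861-6951905, plus strand), which binds BCL2 and BCL-XL when survival kinases do not phosphorylate it, spanned 12.5 to 14.6 CPM (WT), 13.3 to 17.5 (miR-142 KO), 13.98 to 18.8 (CP CML) and 16.9 to 20.6 (BC CML). The BC CML mice were above all WT mice, and the other ranges overlapped. Bad rose in both BCR-ABL comparisons by the same 0.33 on the log2 scale (0.18 to 0.49, adjusted p = 0.001183, against WT; 0.17 to 0.48, adjusted p = 0.001644, against miR-142 KO). In both miR-142 comparisons the difference was 0.17, with adjusted p values of 0.07608 in normal and 0.07574 in CML LSKs, and with sex in the model they were 0.04188 and 0.04296.

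Bbc3 (chr7:16309583-16318334, plus strand), which encodes PUMA, another p53 target, had 75 to 209 counts per library. It spanned 4.91 to 7.37 CPM (WT), 5.84 to 9.24 (miR-142 KO), 3.60 to 6.16 (CP CML) and 4.81 to 7.77 (BC CML). The 4 ranges overlapped and no comparison passed. The 95% interval of the log2 difference ran from -0.07 to 0.60 in BC CML against CP CML and from -0.11 to 0.54 in miR-142 KO against WT. It ran from -0.60 to 0.06 in CP CML against WT and from -0.55 to 0.10 in BC CML against miR-142 KO. Differences of the sizes within these intervals were not resolved among these mice.

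The loss of miR-142 was compared between leukemic and normal LSKs in 1 model term, the BC CML against CP CML effect minus the miR-142 KO against WT effect, and no BCL2 family gene passed. The count was 0 with edgeR's quasi-likelihood test, 0 with its likelihood ratio test and 0 with DESeq2, where 1.91% of all genes passed upward and 2.08% downward in the quasi-likelihood fit. In the edgeR fit 3 of the 10 genes had an unadjusted p under 0.05, as did 2611 of the 13520 genes tested. Bax had a log2 difference of 0.30 (95% interval 0.08 to 0.52, adjusted p = 0.1077). Bid had -0.20 (-0.36 to -0.03, adjusted p = 0.1626) and Pmaip1 -1.24 (-2.39 to -0.10, adjusted p = 0.2158). Without the CP CML mouse 1, the shallowest library, Bax passed with a difference of 0.34 and an adjusted p of 0.04905. For Bcl2l11 and Bcl2l1 the difference was 0.06 (-0.21 to 0.33) and -0.11 (-0.30 to 0.07).

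**Figure D3:**
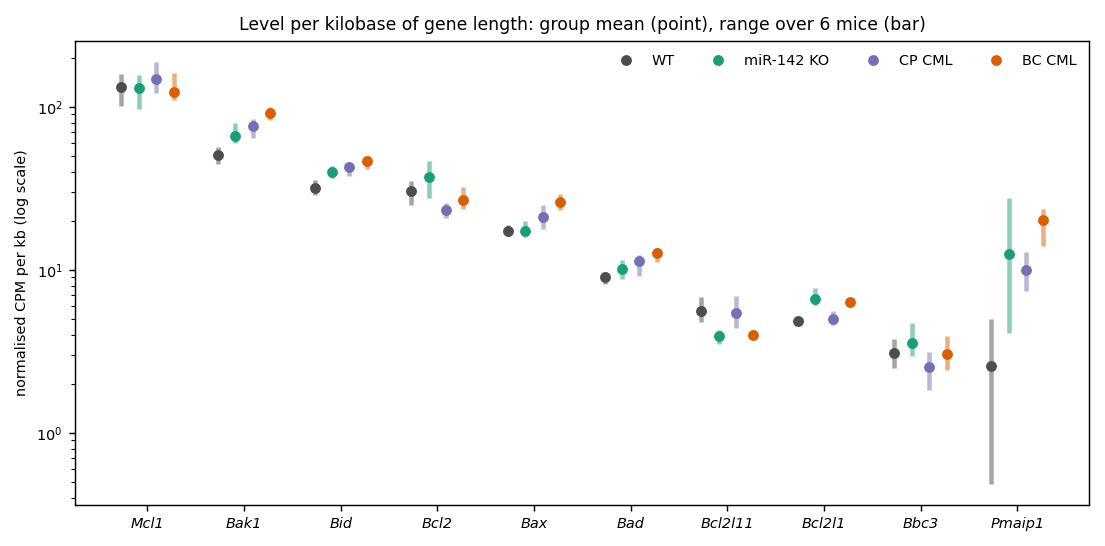
Normalised CPM per kilobase of gene length (y axis, log scale) of the 10 genes (x axis, in the order of the WT means), with points for the mean of each group and bars for the range of its 6 mice. Mcl1 leads in every group, and Bcl2l1 and Bcl2l11 change places between the groups with and without miR-142. Pmaip1 moves from the last place in WT to place 6 in miR-142 KO and BC CML and place 7 in CP CML.

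Levels were compared between genes per kilobase, using the lengths in the deposited table. Mcl1 led in every group, with means of 131.5 CPM per kb (WT), 129.8 (miR-142 KO), 147 (CP CML) and 124 CPM per kb (BC CML). Bak1 came second with 50.6, 66.0, 76.2 and 91.4 in the same order. Neither overlapped with its neighbour in the order in any group. Bid and Bcl2 followed in that order, with overlapping ranges in WT (means 31.9 and 30.5) and miR-142 KO (40.04 and 37.2) and without overlap in CP CML (42.4 and 23.1) and BC CML (46.4 and 26.8).

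Bax, at 17.2 CPM per kb in WT and 26.2 in BC CML, was separated from Bcl2 in the normal groups and overlapped with it in both CML groups. Bcl2l11 was above Bcl2l1 in WT (5.58 and 4.84) and CP CML (5.45 and 4.98), with overlapping ranges. Bcl2l1 was above Bcl2l11 in miR-142 KO (6.66 and 3.93) and BC CML (6.33 and 4.001), without overlap. Pmaip1 and Bbc3 were the last pair in WT, at 2.58 and 3.07 CPM per kb with overlapping ranges. Pmaip1 stood at 20.2 in BC CML, 12.5 in miR-142 KO and 9.895 in CP CML LSKs. Exons of 5 of the 10 genes share bases with another gene of GENCODE vM21. On the opposite strand these were 25.5% of the exon bases of Bak1 (with Ggnbp1), 20.5% of Bad (Gpr137), 17.7% of Bid (Bcl2l13) and 6.09% of Bcl2 (an antisense transcript). On the same strand they were 12.2% of Bax (a predicted gene). The strand setting of the counting is not given in the sources used here, so reads from these stretches are uncertain.

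Marker genes of other progenitor types differed between the same groups. The summed level of 8 mast cell or basophil markers had medians of 595 (WT), 1300 (miR-142 KO), 3042 (CP CML) and 9021 CPM (BC CML). The median levels of Bak1, Bid and Bad had the same order of groups as this sum. The corresponding ranges of the sum were 266 to 788, 432 to 2995, 2084 to 4079 and 5706 to 12060 CPM. Not all 8 markers had that order. Cpa3 had means of 78.9, 308, 1130 and 4100 CPM, whereas Mcpt8 had 89.8, 301, 129 and 164. Prss34 had 129, 449, 103 and 183, and Gata2 202, 298, 316 and 299. The summed level of 10 B lineage or plasma cell markers had medians of 402 CPM in WT and 357 in CP CML and of 40.1 and 37.3 in miR-142 KO and BC CML LSKs, the split that Bcl2l11 also showed. Jchain, a plasma cell gene, carried most of it, with a mean of 423 CPM in WT and 3 in miR-142 KO. The ranges of that sum were 71.6 to 981 in WT and 174 to 793 in CP CML, and 27.8 to 47.7 and 28.7 to 40.6 in the groups without miR-142.

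In the order WT, miR-142 KO, CP CML, BC CML, the sum of 8 HSC markers had medians of 611, 365, 394 and 262 CPM. That of 7 lymphoid-primed markers was 2488, 1133, 1409 and 800.2, and that of 8 neutrophil-primed markers 2224, 6724, 5941 and 7354. The other sums were 388, 543, 809.5 and 712 for monocyte, dendritic cell or macrophage genes and 27.8, 131, 66.5 and 91.6 for mature neutrophil genes. They were 111, 136, 85.8 and 105 for T or NK cell genes, 309.8, 326.5, 292 and 321 for erythroid genes and 355, 488, 329 and 291 for megakaryocyte genes. The 5 genes of the LSK gate summed to 2777, 2625, 2755 and 2588. Members of a list did not all follow its sum. In the HSC list Hlf had means of 450, 188, 273 and 133 CPM in the same order of groups. Mecom there had 75.4, 76.5, 49 and 60.7, and Hoxb5 1.37, 3.49, 0.948 and 2.62. In the mature neutrophil list Lcn2 had means of 1.37, 10.7, 38 and 64.9 CPM. Ngp there had 9.57, 16.2, 5.2 and 0.996, and Retnlg 5.63, 2.34, 2.11 and 0.0534. No marker of these lists was at 0 in all libraries. The part of these populations in the levels of the BCL2 family genes was not tested.

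The pathway around the 10 genes was read from 8 lists. Beside each count below stand the shares of all tested genes. In BC CML against CP CML 20.4% were higher and 17.6% lower, and in miR-142 KO against WT 19.9% and 16.4%. In CP CML against WT they were 22.5% and 22.9%, and in BC CML against miR-142 KO 20.3% and 19.3%. For the difference of the miR-142 effects they were 1.91% and 2.08%. The list counts were not tested against these shares. Of 21 other BCL2 family genes, 14 were tested, and in BC CML against CP CML LSKs 3 were higher and 3 lower. Mtch2, a mitochondrial receptor of cleaved BID, was at 0.24 (log2 fold change, adjusted p = 0.008464) and Bnip2 at 0.16 (adjusted p = 0.001431). Bok, an effector homologue with 1.14 CPM in BC CML, was at -0.95 (adjusted p = 0.01519). In miR-142 KO against WT LSKs 2 were higher and 1 lower, with Mtch2 at 0.21 (adjusted p = 0.01736) and Bok at -0.87 (adjusted p = 0.02337). CP CML against WT gave 5 higher and 2 lower, with Bnip3l, a mitophagy receptor, at -0.41 (adjusted p = 0.0009525). BC CML against miR-142 KO gave 4 higher and 2 lower. The list medians were 0.01, 0.01, 0.07 and -0.03 on the log2 scale, beside 0.01, 0.01, -0.02 and -0.02 for all genes.

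Of 18 genes of the apoptosome and the caspases, all tested, 4 were higher and 1 lower in BC CML against CP CML, 5 and 3 in miR-142 KO against WT, 6 and 2 in CP CML against WT, and 6 and 2 in BC CML against miR-142 KO. Vdac2, the channel that recruits BAK to mitochondria, rose in all 4, by 0.22 (adjusted p = 0.0137), 0.29 (adjusted p = 0.002501), 0.48 (adjusted p = 1.161e-05) and 0.42 (adjusted p = 8.526e-05) on the log2 scale. Apaf1, the scaffold of the apoptosome, rose against WT in miR-142 KO (0.27, adjusted p = 0.00272) and CP CML (0.40, adjusted p = 6.024e-05).

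Of 9 tested inhibitors of apoptosis proteins, 3 rose and 1 fell in BC CML against CP CML, 2 and 1 in miR-142 KO against WT, 2 and 4 in CP CML against WT, and 1 and 3 in BC CML against miR-142 KO. Xiap, which blocks caspases, fell in miR-142 KO (-0.20, adjusted p = 0.02697) and CP CML (-0.28, adjusted p = 0.002704) against WT, and Birc5, survivin, rose in BC CML against CP CML (0.26, adjusted p = 0.02254). Naip2 rose in all 4 comparisons (0.72 in BC CML against CP CML, adjusted p = 0.0001232), with the reserve that the Naip genes are near-identical copies that share reads.

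The death receptor pathway, whose signal Bid carries, had 16 tested genes, with 3 higher and 1 lower in BC CML against CP CML, 4 and 3 in miR-142 KO against WT, 3 and 2 in CP CML against WT, and 3 and 1 in BC CML against miR-142 KO. Tnfrsf1a, the TNF receptor, rose in all 4, most in BC CML against CP CML (0.71, adjusted p = 2.781e-08) and in miR-142 KO against WT (0.65, adjusted p = 1.526e-07). Tnfsf10, the TRAIL ligand, fell in both miR-142 comparisons (-0.50, adjusted p = 0.000308, in CML; -0.41, adjusted p = 0.001995, in normal LSKs).

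Pmaip1, Bbc3 and Bax are p53 targets, and 25 other genes of p53 and its targets were all tested. In BC CML against CP CML 8 were higher and 2 lower, in miR-142 KO against WT 4 and 5, in CP CML against WT 3 and 8, and in BC CML against miR-142 KO 8 and 4. Of these, Fas, Apaf1 and Tnfrsf10b also stand in another of the lists. Perp rose in both miR-142 comparisons (log2 fold change 2.28, adjusted p = 3.807e-07, in normal and 1.65, adjusted p = 2.107e-05, in CML LSKs). Siva1 did so in both (0.45, adjusted p = 0.0004478; 0.36, adjusted p = 0.003478). Siva1 also rose in CP CML against WT (0.37, adjusted p = 0.002231) and in BC CML against miR-142 KO (0.27, adjusted p = 0.01975). Ddb2, a DNA repair gene under p53, fell in both miR-142 comparisons (-0.34, adjusted p = 0.0007056, in normal and -0.39, adjusted p = 0.0001745, in CML LSKs). It also fell in CP CML against WT (-0.23, adjusted p = 0.01373) and BC CML against miR-142 KO (-0.28, adjusted p = 0.0043). Sesn1 fell in both BCR-ABL comparisons (-0.70, adjusted p = 5.721e-05, and -0.44, adjusted p = 0.004842) and rose in BC CML against CP CML (0.38, adjusted p = 0.01341). The difference between the miR-142 effects passed for 3 genes of this list, all upward, which are named after their values were seen. They were Eda2r (2.64, adjusted p = 0.0005669), Phlda3 (1.65, adjusted p = 0.001797) and Ccng1 (0.42, adjusted p = 0.01565).

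Of 25 tested transcription factors upstream of the family, 3 were higher and 4 lower in BC CML against CP CML, 8 and 3 in miR-142 KO against WT, 8 and 9 in CP CML against WT, and 3 and 9 in BC CML against miR-142 KO. Hlf, a transcription factor of stem cells, fell in all 4 comparisons. With the loss of miR-142 it was at -1.26 (adjusted p = 4.818e-06) in normal and -1.03 (adjusted p = 5.577e-05) in CML LSKs. With BCR-ABL it was at -0.72 against WT (adjusted p = 0.00156) and -0.50 against miR-142 KO (adjusted p = 0.02407). Mef2c fell in both BCR-ABL comparisons (-0.53, adjusted p = 0.0003717; -0.48, adjusted p = 0.001437), as Bcl2 did. Stat5a and Stat5b, which transmit BCR-ABL signals to Bcl2l1, fell in BC CML against miR-142 KO (-0.30, adjusted p = 0.000114, and -0.23, adjusted p = 0.0001761). They also fell in CP CML against WT (-0.15, adjusted p = 0.02097, and -0.12, adjusted p = 0.01561). Stat5a rose in miR-142 KO against WT (0.25, adjusted p = 0.0004346), and Stat5b fell in BC CML against CP CML (-0.15, adjusted p = 0.004658). The difference between the miR-142 effects passed for Gata2, with a negative value (-0.64, adjusted p = 0.02816). Gata2 rose in miR-142 KO against WT (0.56, adjusted p = 0.0006292) and did not pass in BC CML against CP CML (-0.08, adjusted p = 0.6074).

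Of 22 kinases, phosphatases and binding proteins that act on BCL2 family proteins, 6 rose and 3 fell in BC CML against CP CML, 3 and 0 in miR-142 KO against WT, 5 and 5 in CP CML against WT, and 5 and 3 in BC CML against miR-142 KO. Dynll1, a dynein light chain that tethers BIM, rose in BC CML against CP CML (0.60, adjusted p = 0.002193) and against miR-142 KO (0.67, adjusted p = 0.001102). Ywhae, a 14-3-3 protein that holds phosphorylated BAD, rose in both miR-142 comparisons (0.37, adjusted p = 1.189e-05, in CML and 0.30, adjusted p = 0.0001148, in normal LSKs). It also rose in BC CML against miR-142 KO (0.19, adjusted p = 0.008714). Pim2, a kinase of BAD, rose in CP CML against WT (0.65, adjusted p = 0.0009326) and fell in BC CML against CP CML (-0.65, adjusted p = 0.00106).

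Of 13 tested ubiquitin ligases, deubiquitinases and related regulators of MCL1 and BIM, 2 rose and 1 fell in BC CML against CP CML, 3 and 1 in miR-142 KO against WT, 3 and 1 in CP CML against WT, and 3 and 2 in BC CML against miR-142 KO. Huwe1, a ligase of MCL1, rose in miR-142 KO against WT (0.21, adjusted p = 0.008498), while Fbxw7, another, fell there (-0.28, adjusted p = 0.001408) and rose in BC CML against miR-142 KO (0.37, adjusted p = 0.0001619). Its difference between the miR-142 effects passed, at 0.42 (adjusted p = 0.01021), and the remaining 5 lists had 0 genes past that test. Btrc, which acts on BIM as well as on other proteins, fell with BCR-ABL in both comparisons (-0.45, adjusted p = 4.137e-06; -0.35, adjusted p = 0.0001068).

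**Figure D4:**
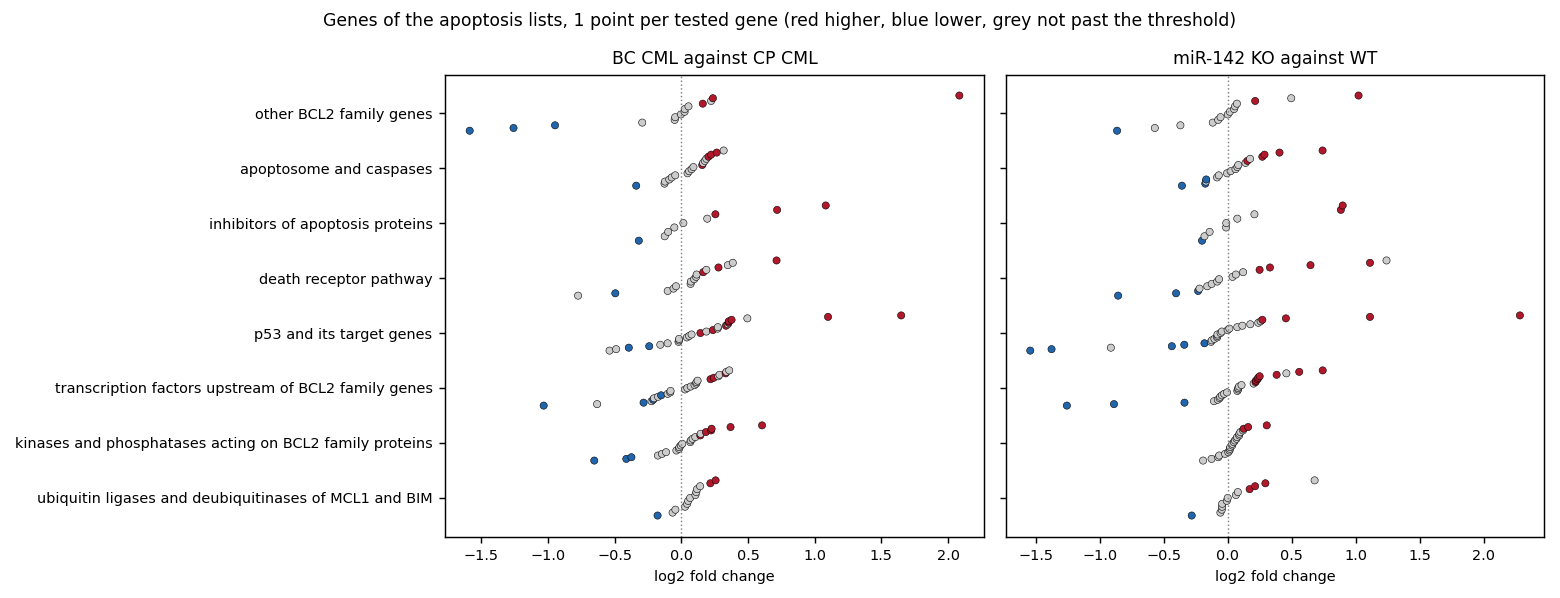
Log2 fold change (x axes) of each tested gene of the 8 lists (y axis), 1 point per gene, in BC CML against CP CML (left) and miR-142 KO against WT (right); red points passed the threshold as higher, blue as lower, and grey did not pass. Red points appear in every list, and Perp, at 2.28, lies farthest to the right in the p53 list of the right panel.

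The patterns most like 3 of the genes were sought as the highest Pearson correlation of log2 CPM over the 24 libraries, which fall into 4 groups and so share those group differences. For Mcl1 they were Ier2 (r = 0.927) and Btg2 (r = 0.925), a pair of immediate early genes. Within the miR-142 KO group alone Ier2 spanned 107 to 299 CPM and Btg2 60.6 to 279 CPM. For Pmaip1 they were Dhx40 (r = 0.955) and Tuba1c (r = 0.953), with Dhx40 at 18.1 to 46.5 CPM in WT and 69.3 to 85.0 in BC CML LSKs. For Bcl2l11 they were Slamf6 (r = 0.917) and Zrsr1 (r = 0.908). Slamf6 had mean levels of 4.24 CPM in WT and 5.21 in CP CML against 1.07 in miR-142 KO and 1.29 in BC CML LSKs.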

How the data were processed

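BM LSKs of 24 mice were measured by bulk RNA-seq on 1 library per mouse. Per the labels and the methods, poly(A) libraries were made with the Kapa mRNA HyperPrep kit, adapters and poly(A) tails were removed (Trimmomatic, FASTP), STAR 2.6.0 aligned the reads to mm10 and HTSeq 0.11.1 counted them per gene. The authors deposited raw counts per gene, with gene length in kilobases as a further column. The annotation and the strand setting are not given in the sources used here. All 24 columns were matched to mice by the labels, and the 6 mice of each group were used although the methods give another number.

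Counts were fitted in edgeR 4.0.16 under R 4.3.3 (TMM, filterByExpr, 1 coefficient per group, quasi-likelihood tests, intervals of 95% from the fitted standard error and its degrees of freedom). Depth was 16267965 to 24687077 counts, intervals cover the spread between mice, and a count of 0 allows up to 3 counts, for counting error only. Alternatives were the likelihood ratio test, DESeq2 1.42.0, RLE and upper quartile normalization, no filter, at least 1 CPM in 6 libraries, sex as a covariate, only the 12 libraries compared, a log2 fold limit of 1, each mouse left out and, chosen after seeing the data, WT mice 1 and 4 left out together. The 10 genes and all lists were chosen with earlier results of these data known. Named genes were the 10, Mir142, per list and comparison the 3 risen and 3 fallen genes of smallest p at most (mean of at least 1 CPM), from which the text takes those it uses, and the 2 genes most correlated with a member for 3 members, none of them a predicted gene. FOXO genes, Kit, Cd34, Ptprc, Ly6a, Cd3e, Jchain and the other single markers of the cell type lists are named from the lists as checks. Some genes of the lists are not reported here by name. 3' UTRs were taken from GENCODE vM21 (GRCm38) and sequences from RefSeq GRCm38.p6.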

Additional observations from a re-analysis of the deposited data

Results flagged for a closer look

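Of the 40 groups of 6 values (10 genes in 4 groups), 1 held a value set apart from the rest of its group. Bak1 was 160.2 CPM in miR-142 KO mouse 3, with the nearest mouse at 135 CPM, a gap of 0.641 of the group's whole range, past Dixon's limit for 6 samples. Chance sets apart about 1 in 20 groups. Without this mouse the log2 fold change of Bak1 in miR-142 KO against WT stayed within 0.33 to 0.43, the range over all mice left out in turn. The same mouse had the highest Pmaip1 of its group, at 73.2 CPM.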

How the results depend on the processing

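No paired analysis was possible because the labels give each mouse its own identifier and no number shared between groups. The count of BCL2 family genes past the threshold was 5, 6, 6 and 5 in BC CML against CP CML, miR-142 KO against WT, CP CML against WT and BC CML against miR-142 KO, and it ranged from 4 to 6, 5 to 7, 6 to 6 and 5 to 6 with each mouse left out. Requiring a log2 fold change of at least 1 in size left 1, 1, 1 and 0. The difference of the miR-142 effects gave 0 to 1 with each mouse left out. Of 1610 alternative values of single genes, 1555 kept their direction and side of the threshold, 18 lost the call (Pmaip1 in BC CML against CP CML and Bcl2 in miR-142 KO against WT), 9 gained it and 28 turned direction, each of these uncalled. With each mouse left out, the log2 fold change ranged from -0.0839 to 0.0539 for Mcl1 and -0.0204 to 0.0432 for Bax in miR-142 KO against WT, -0.0996 to 0.0353 for Bcl2l11 in CP CML against WT, -0.0146 to 0.0419 for Bcl2l11 in BC CML against miR-142 KO and, for the difference of effects, -0.0247 to 0.1165 for Bcl2l11, -0.0764 to 0.0136 for Bad and -0.0655 to 0.1195 for Bbc3. Upper quartile normalization gave -0.0367 for Bax in miR-142 KO against WT, -0.0096 for Bcl2l11 in BC CML against miR-142 KO and 0.0026 for the Bad difference. The cause was not tested. Among all genes, that limit left 992, 1054, 930 and 828 of 5137, 4907, 6143 and 5358 calls, and DESeq2 called 882 genes for the difference of effects against 539.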

Other observations

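Pmaip1 of the WT mice fell into 2 levels, chosen here after the values were seen, with 1.76 and 1.29 CPM (43 and 30 counts) in mice 1 and 4 and 7.45 to 13.1 CPM in the others.

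Another pair of BH3-only genes, outside the 10, stand in the list of other BCL2 family genes and are included in its counts above. Bmf, which binds dynein light chains in resting cells, was at a mean of 5.99 (WT), 4.63 (miR-142 KO), 8.25 (CP CML) and 6.72 CPM (BC CML), and edgeR called it higher with BCR-ABL both against WT (log2 fold change 0.46, adjusted p = 0.04333) and against miR-142 KO (0.54, adjusted p = 0.02425). Bik was at 0.218, 0.451, 0.0999 and 0.44 CPM in the same order, with log2 fold changes of 1.02 in miR-142 KO against WT (adjusted p = 0.02264), 2.08 in BC CML against CP CML (adjusted p = 0.0002372) and -1.10 in CP CML against WT (adjusted p = 0.03838). Each Bik mean lay below the 1 CPM asked of the named list genes, so its fold changes rest on few reads. Bmf and Bik were both picked after their values were seen.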
